A study of Cavia porcellus with 6 samples.

Results

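The genes described here are the enzymes and transporters of glycolysis and a set of classical targets of the hypoxia-inducible factors (HIFs), 35 genes chosen by name, of which 33 were matched to the 32193 genes of the count table. Ldha and Slc2a3 were not matched by symbol and are not analysed here. All 33 passed the filter on low counts, alongside 16348 genes in all. The genes were measured by RNA sequencing in the posterior pole of the sclera of guinea pigs (Cavia porcellus). The first group is FDM, 3 libraries of right eyes with form deprivation. In form deprivation the eye is kept from seeing a sharp image so that it elongates and becomes myopic. The second group is NC, 3 libraries of right eyes of the control group. Tissue of both groups was taken on day 28 of induction. No strain, age, sex, transgene or drug is labelled for any of the 6 libraries, and the sources used here do not say how eyes were covered.

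Glycolysis splits glucose into pyruvate in the cytosol and needs no oxygen. In low oxygen the HIF alpha subunits escape degradation, pair with ARNT and switch on genes for glucose uptake, glycolysis, lactate export, vessel growth and mitochondrial turnover. Several glycolytic steps have isoforms that are used by most cells, by muscle or by neurons, so a level of glycolytic messenger RNA in a mixed tissue reflects both activity and the cells sampled. The sclera is mostly fibroblasts and collagen, and scleral hypoxia is a proposed step in myopia, which is the question that this comparison addresses.

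Values are CPM, read counts relative to library size, with library sizes scaled by the trimmed mean of M values (TMM). Fold changes are log2 values of FDM against NC, with a standard error (SE) from the quasi-likelihood test of edgeR. Total counts ran from 12048216 to 16181865 in FDM and from 10377397 to 17534982 in NC. FDM 1 and NC 1 stood apart. Of the 8061 genes averaging over 300 counts, 223 had no count in FDM 1 and 96 had none in NC 1, against 0 to 4 in the others. Among the members, Slc16a3 and Pfkfb4 had no count in FDM 1, which allows up to 0.296 CPM (3 counts, counting error only), and Pgam2 and Ankrd37 had none in NC 1, which allows up to 0.294 CPM. Scleral fibroblast markers were present in each library, with 0 of 20 at a count of 0. Their summed level lay between 27719 and 77705 CPM in FDM, and between 9736 and 76781 CPM in NC. Markers of other tissues were present too. The 27 skeletal muscle markers summed to 107873, 103998 and 20475 CPM in FDM 1, 2 and 3, against 842, 29662 and 48369 CPM in NC 1, 2 and 3. The 23 photoreceptor markers summed to 302, 1836 and 13527 CPM in FDM 1, 2 and 3, against 9859, 30348 and 607 CPM in NC 1, 2 and 3. Of these markers 7 muscle genes, among them Myh2, Myh4 and Mb, were at 0 in NC 1, and 12 photoreceptor genes, among them Pde6b and Gnat2, were at 0 in FDM 1. In tissue of mixed cells, fewer cells of a type and less RNA per cell cannot be told apart.

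No member passed the test between FDM and NC. Adm, encoding the vasodilator peptide adrenomedullin, had the highest fold change, and Stc2, encoding the secreted glycoprotein stanniocalcin 2, the lowest. The median log2 fold change was -0.77 for glucose entry, -0.31 for the general enzymes and -0.59 for the lactate and pyruvate genes. These medians were -0.19, 0.05 and -0.035 without NC 2, but -1.40, -0.27 and -1.61 without FDM 3. Without NC 3 they were -1.25, -0.65 and -0.86. The median was 1.22 for the 3 muscle isoforms, 0.56 without FDM 1 and 1.61 without NC 3. It was -1.18 for the 3 neural isoforms, -0.31 without NC 2 and -1.67 without NC 3. By the quasi-likelihood test of edgeR 0 of 33 members were called at 0.05 after adjustment, with 0.999999 as the smallest adjusted p, and 0% of all genes were. At an unadjusted p below 0.05 the count was 2 of 33, Adm higher and Stc2 lower, and for all genes this share was 0.954%. DESeq2 called 0 of 33. Its share was 0.111% of the 22455 genes with a count in any library, a wider set than the 16348 genes tested by edgeR. Of the members 10 had a positive and 23 a negative fold change, the median being -0.31, beside a median of 0.02 and 48.8% negative over all genes tested. For 20 of 33 the fold change lay within its own SE of 0. The median of the members was -0.04 without NC 2. With any other library left out it ran from -0.62 to -0.24.

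**Figure D1:**
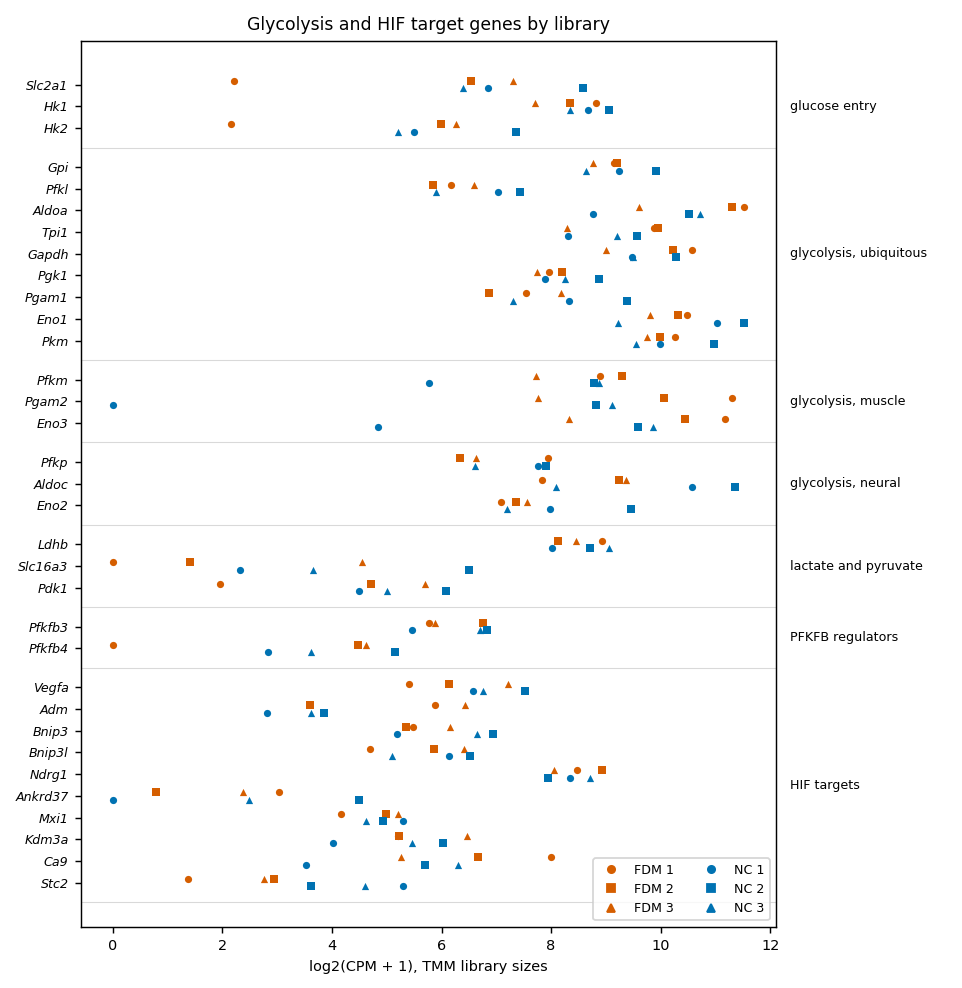
Level of each of the 33 members in each library as log2(CPM + 1), grouped by role, FDM in orange above NC in blue, with the marker shape giving the replicate number. Points of both groups are mixed for all members but Stc2, and the square of NC 2 is the rightmost point for 19 of them.

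**Figure D2:**
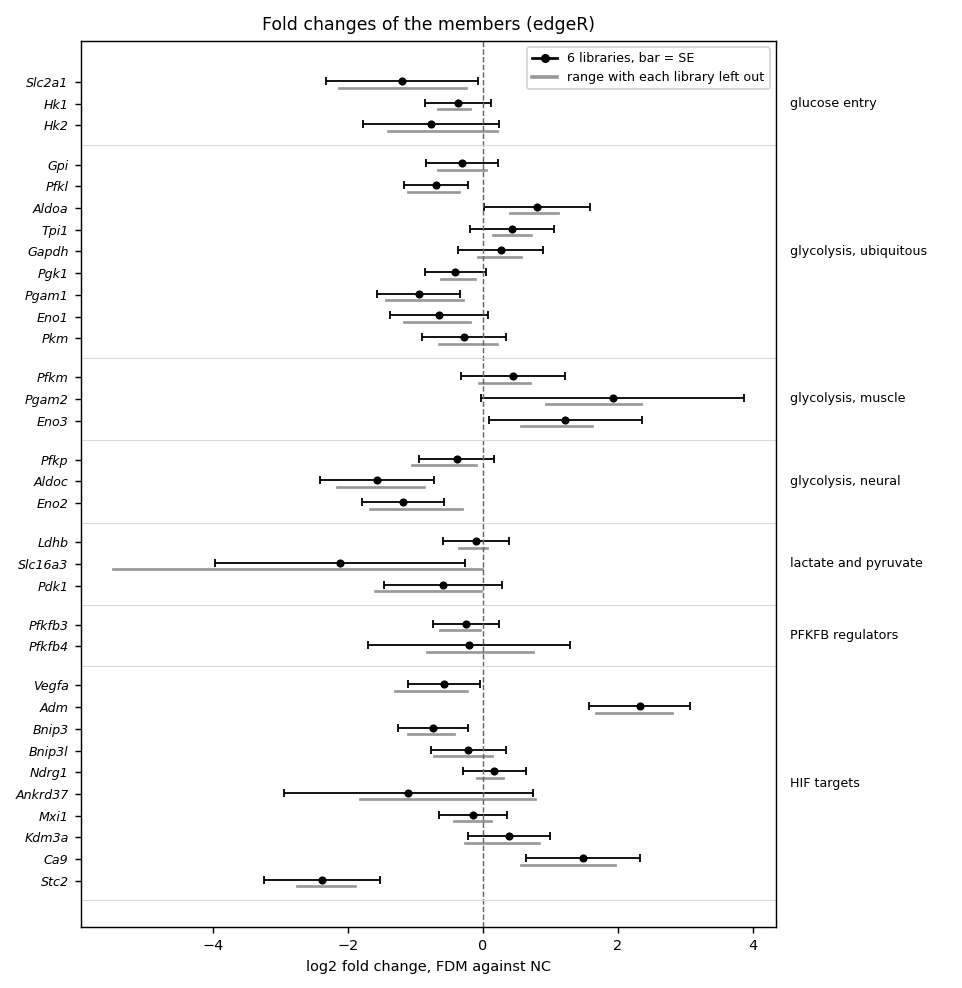
Log2 fold change of each member, FDM against NC, with its SE (black), and the range of the fold change when each library was left out in turn (grey). Adm at 2.32 and Stc2 at -2.38 lie farthest from 0, and the grey range crosses 0 for 12 members.

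The library NC 2 held the highest value of 19 of the 33 members (57.6%), while 16.1% of all genes tested peaked in it. It was also the library with the most photoreceptor RNA and the least scleral fibroblast RNA, at 30348 and 9736 summed CPM. The members took 1.42%, 1.26% and 0.772% of all counts in FDM 1, 2 and 3, against 0.932%, 2.22% and 1.06% in NC 1, 2 and 3. FDM 1 and NC 1 each held the lowest value of 11 members (33.3%), beside 42.3% of all genes tested for FDM 1 and 19.6% for NC 1. The part of photoreceptor RNA in the level of the members in NC 2 was not tested.

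**Figure D3:**
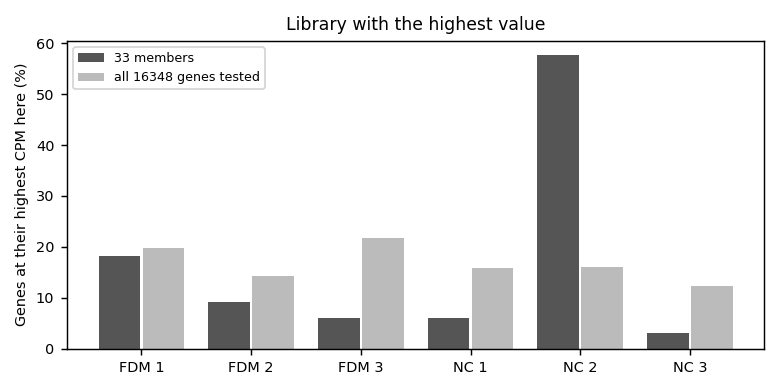
Percentage of genes with their highest CPM in each library, for the 33 members (dark) and for all 16348 genes tested (light). NC 2 holds 57.6% of the members and 16.1% of all genes, and in the other 5 libraries the members' bar is the shorter.

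Glucose enters cells through transporters and is trapped by hexokinases. Slc2a1, which encodes the general glucose transporter GLUT1 and is a HIF target, had 3.65, 92.4 and 158 CPM in FDM 1, 2 and 3, against 114, 384 and 82.8 CPM in NC 1, 2 and 3. The low value of FDM 1 and the high value of NC 2 set the difference, and the other libraries overlapped. Its log2 fold change was -1.19 ± 1.13 (SE). It was -0.25 without NC 2 and -0.63 without FDM 1, but -2.13 without FDM 3. Hk1, the hexokinase of most cells, averaged 327 ± 122 CPM in FDM and 422 ± 103 CPM in NC (SD, n = 3), a fold change of -0.37 ± 0.49. Hk2, the hexokinase that HIF and insulin induce, had 3.45, 62.8 and 75.5 CPM in FDM 1, 2 and 3, against 44.1, 162 and 36.1 CPM in NC 1, 2 and 3. Its fold change of -0.77 ± 1.01 was 0.21 without NC 2 and -1.40 without FDM 3.

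The 9 genes of the general enzymes ran from Gpi to Pkm with fold changes between -0.95 and 0.80, 6 of them negative, and a median of -0.31. This median was 0.05 without NC 2 and -0.65 without NC 3. Aldoa, the aldolase of muscle and most other cells, had the highest fold change of these, 0.80 ± 0.79. It lay at 2949, 2519 and 778 CPM in FDM 1, 2 and 3, against 434, 1468 and 1674 CPM in NC 1, 2 and 3. Its order over the 6 libraries was the same as that of the summed skeletal muscle markers, with FDM 1 highest and NC 1 lowest. Tpi1, the triosephosphate isomerase, had a fold change of 0.43 ± 0.63. Gapdh, which is often taken as a reference gene, had 1516, 1191 and 512 CPM in FDM 1, 2 and 3, against 708, 1249 and 723 CPM in NC 1, 2 and 3. Its highest library held 2.96 times its lowest, and its fold change was 0.26 ± 0.63, and -0.053 with total-count scaling, which moved the median of all genes to -0.23.

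The other general enzymes had negative fold changes. Pgam1, a phosphoglycerate mutase, had 184, 115 and 289.6 CPM in FDM 1, 2 and 3, against 319.9, 665 and 157 CPM in NC 1, 2 and 3, so that NC 3 lay within the FDM values. Its fold change was -0.95 ± 0.61, -0.30 without NC 2 and -1.44 without FDM 3. Eno1, the enolase of most cells, had 1422, 1275 and 895 CPM in FDM 1, 2 and 3, against 2098, 2943 and 597 CPM in NC 1, 2 and 3. The NC libraries thus lay on both sides of the FDM libraries, with a fold change of -0.65 ± 0.73. Pfkl, the liver-type subunit of phosphofructokinase, the committed step of the pathway, averaged 74.1 ± 19.7 CPM in FDM and 119.9 ± 57.0 CPM in NC (SD, n = 3), a fold change of -0.69 ± 0.47. Pgk1, phosphoglycerate kinase and a classical HIF target, averaged 252 ± 39.6 CPM in FDM and 335 ± 120.2 CPM in NC (SD, n = 3), a fold change of -0.41 ± 0.45. Gpi, which converts glucose phosphate to fructose phosphate, and Pkm, the pyruvate kinase of most tissues, had fold changes of -0.31 ± 0.53 and -0.28 ± 0.62. These were 0.046 and 0.21 without NC 2, but -0.67 and -0.65 without NC 3.

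The muscle isoforms were higher in FDM on average and varied with the skeletal muscle markers. Pgam2, the muscle phosphoglycerate mutase, had 2519, 1064 and 216 CPM in FDM 1, 2 and 3, against 0, 452 and 553 CPM in NC 1, 2 and 3. Eno3, the muscle enolase, had 2315, 1388 and 319 CPM in FDM 1, 2 and 3, against 27.7, 769.7 and 929 CPM in NC 1, 2 and 3. For both genes FDM 1 and FDM 2 were high, NC 1 was very low, and FDM 3 lay below NC 2 and NC 3. Pfkm, the muscle subunit of phosphofructokinase, had 474, 624 and 209.8 CPM in FDM 1, 2 and 3, against 53.6, 438 and 470.0 CPM in NC 1, 2 and 3. The fold changes were 1.92 ± 1.95 for Pgam2, 1.22 ± 1.13 for Eno3 and 0.44 ± 0.77 for Pfkm, with a median of 1.22, and -0.097 without both libraries numbered 1.

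Together the 3 muscle isoforms summed to 5309, 3075 and 744 CPM in FDM 1, 2 and 3, against 81.3, 1660 and 1952 CPM in NC 1, 2 and 3. This sum ran in the same order over the libraries as the sum of the 27 skeletal muscle markers, none of which is a member. Aldoa, Pgam2, Eno3 and Ca9 each had that same order, 4 of 33 members (12.1%), beside 0.789% of all genes tested. All 27 muscle markers had positive fold changes, with a median of 1.34 and 0 called by edgeR. The part of muscle tissue in the higher FDM values of these isoforms was not tested.

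The neural isoforms were lower in FDM on average. Aldoc, the aldolase of brain and retina, had 228, 605 and 655 CPM in FDM 1, 2 and 3, against 1522, 2623 and 273 CPM in NC 1, 2 and 3. NC 1 and NC 2 lay above all FDM libraries, while NC 3 lay next to FDM 1 at the low end. Eno2, the enolase of neurons and a HIF target in other cells, had 135, 163 and 187 CPM in FDM 1, 2 and 3, against 250.4, 704 and 145 CPM in NC 1, 2 and 3. It had the same order over the libraries as Aldoc. Pfkp, the phosphofructokinase subunit of platelets and brain, had 244, 79.8 and 98.4 CPM in FDM 1, 2 and 3, against 216, 239.8 and 96.1 CPM in NC 1, 2 and 3, with the extremes of the groups close together. The fold changes were -1.57 ± 0.85 for Aldoc, -1.18 ± 0.61 for Eno2 and -0.39 ± 0.56 for Pfkp. Without NC 2 those of Aldoc and Eno2 were -0.87 and -0.31, and without NC 3 they were -2.16 and -1.67.

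The 20 neuron markers, among them neurofilaments and synaptic genes, summed to 1707, 982 and 1606 CPM in FDM 1, 2 and 3, against 2448, 3397 and 1424 CPM in NC 1, 2 and 3. NC 2 and NC 1 led in these as in Aldoc and Eno2. The rest of the order differed, with FDM 2 lowest for the neuron markers and FDM 1 lowest for Aldoc and Eno2. The full order of the neuron marker sum was held by 0 of 33 members, beside 0.0367% of all genes tested. Of the 23 photoreceptor markers 23 had negative fold changes, with a median of -1.31, and of the 19 neuron markers tested 17 did, with a median of -0.68. In both lists edgeR called 0. In FDM 1, 2 and 3 the 18 glia markers summed to 4856, 22499 and 3835 CPM. In NC 1, 2 and 3 they summed to 7498, 7882 and 16373 CPM, so that FDM 2 was the highest library. Of the glia markers 5 had positive and 13 negative fold changes, with a median of -0.24 and 0 called by edgeR. The part of retinal or nerve tissue in the lower FDM values of Aldoc and Eno2 was not tested.

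**Figure D4:**
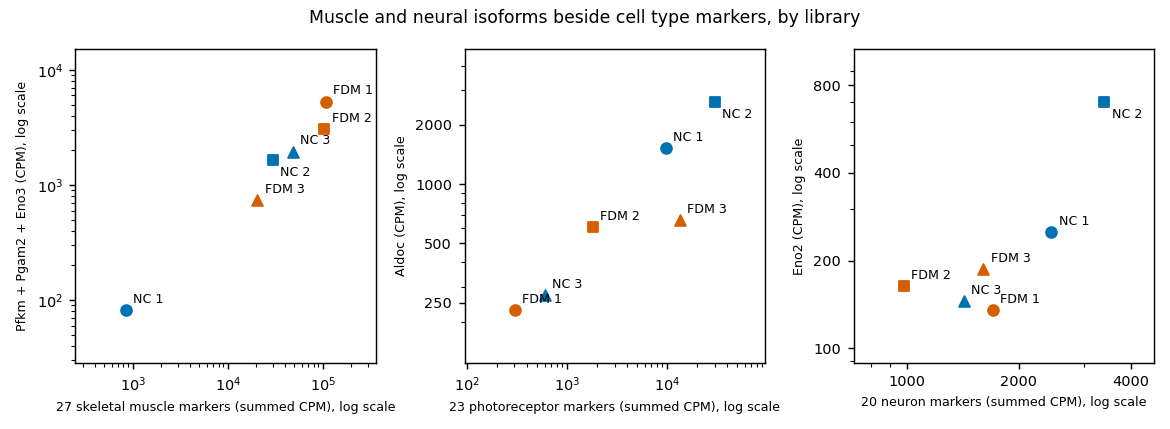
Left, summed CPM of Pfkm, Pgam2 and Eno3 against the summed CPM of 27 skeletal muscle markers; middle, Aldoc against 23 photoreceptor markers; right, Eno2 against 20 neuron markers, 1 point a library on log axes. Libraries of both groups mix along the muscle panel, where NC 1 lies at 81.3 CPM and FDM 1 at 5309 CPM, and NC 2 is the highest point of the other panels.

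Isoform shares within an enzyme family do not depend on library scaling. They are shares of read counts and are not corrected for transcript length, so they compare libraries and not isoforms. Pgam2 made up 93.2%, 90.2% and 42.7% of the Pgam1 and Pgam2 counts in FDM 1, 2 and 3, against 0%, 40.5% and 77.9% in NC 1, 2 and 3. Eno3 made up 59.8%, 49.1% and 22.8% of the enolase counts in FDM 1, 2 and 3, against 1.17%, 17.4% and 55.6% in NC 1, 2 and 3. Aldoc made up 7.19%, 19.4% and 45.7% of the Aldoa and Aldoc counts in FDM 1, 2 and 3, against 77.8%, 64.1% and 14.0% in NC 1, 2 and 3. The shares of these 3 isoforms thus varied widely between libraries of the same group. Wilson 95% intervals of these shares reached at most 1.53 percentage points to either side and cover counting error only.

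Over the 7 shares compared, the groups overlapped in each. The mean share of Pgam2 was 75.4 ± 28.3% in the 3 FDM libraries and 39.5 ± 39.0% in the 3 NC libraries (SD), a difference of 35.9 points with an exact two-sided permutation p of 0.2. For Aldoc the mean was 24.1 ± 19.7% in the 3 FDM libraries and 52.0 ± 33.6% in the 3 NC libraries (SD), a difference of -27.9 points with an exact permutation p of 0.3. The differences for Eno3, Pfkm, Pfkp, Eno2 and Hk2 were 19.2, 18.0, -10.7, -4.18 and 0.18 points, with exact permutation p of 0.4, 0.4, 0.5, 0.3 and 1. The Benjamini-Hochberg adjusted values over the 7 ran from 0.56 to 1, and 3 against 3 libraries cannot give a p under 0.1. Without both libraries numbered 1 the differences of Pgam2, Aldoc and Eno3 were 7.26, -6.53 and -0.58 points.

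**Figure D5:**
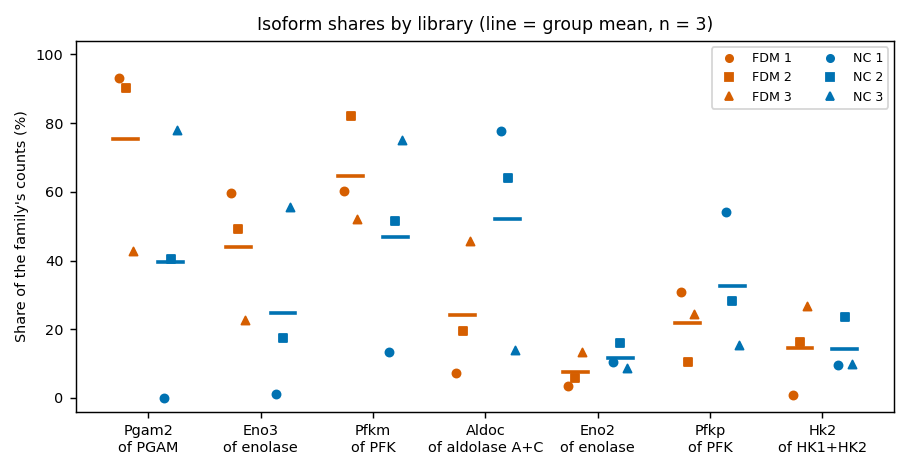
Share of each isoform in the summed counts of its enzyme family, in percent, by library, FDM in orange and NC in blue, with a line at the mean of 3 libraries. The shares of Pgam2 span 42.7% to 93.2% in FDM and 0% to 77.9% in NC.

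At the end of the pathway, lactate dehydrogenase, the lactate exporter and the kinase that inhibits pyruvate dehydrogenase were read from Ldhb, Slc16a3 and Pdk1. Ldhb, the heart-type subunit, averaged 372 ± 106 CPM in FDM and 400.3 ± 137 CPM in NC (SD, n = 3), a fold change of -0.11 ± 0.49. Slc16a3, encoding the lactate exporter MCT4, had 0, 1.66 and 22.3 CPM in FDM 1, 2 and 3, against 4.01, 89.1 and 11.6 CPM in NC 1, 2 and 3. NC 2 was far above all others, and FDM 3 lay above NC 1 and NC 3. The fold change was -2.12 ± 1.85, -0.010 without NC 2 and -5.48 without FDM 3. Pdk1 had 2.86, 25.1 and 51.0 CPM in FDM 1, 2 and 3, against 21.5, 66.4 and 31.1 CPM in NC 1, 2 and 3. Its fold change was -0.59 ± 0.88, -0.035 without NC 2 and -1.61 without FDM 3. Pfkfb3 and Pfkfb4, bifunctional enzymes that make the activator of phosphofructokinase and are HIF targets, had fold changes of -0.25 ± 0.49 and -0.21 ± 1.49. Pfkfb4 had 0, 21.2 and 23.7 CPM in FDM 1, 2 and 3, against 6.16, 34.4 and 11.3 CPM in NC 1, 2 and 3.

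The 10 HIF targets outside glycolysis had a median fold change of -0.18, with 4 positive and 6 negative. The sign of this median turned with single libraries, as it was 0.12 without FDM 1 and 0.026 without NC 2, but -0.58 without FDM 3 and -0.50 without NC 3. It was 0.035 with limma-voom and 0.038 without both libraries numbered 1. Vegfa, the angiogenic growth factor, had 41.2, 68.9 and 148 CPM in FDM 1, 2 and 3, against 93.7, 184 and 107 CPM in NC 1, 2 and 3. The lowest values were FDM 1 and FDM 2, while FDM 3 lay between NC 3 and NC 2. Its fold change was -0.58 ± 0.53, and -0.24 without FDM 1 and -1.31 without FDM 3. Bnip3 and Bnip3l, mitophagy receptors of the outer mitochondrial membrane, had fold changes of -0.74 ± 0.52 and -0.22 ± 0.56. Bnip3 averaged 51.2 ± 16.3 CPM in FDM and 85.2 ± 44.5 CPM in NC (SD, n = 3). Bnip3l and Slc2a1 both ran in the order of the photoreceptor marker sum over the libraries, 2 of 33 members (6.06%), which 1.03% of all genes tested did.

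Adm was highest in libraries of the FDM group. It had 57.8, 11.1 and 85.1 CPM in FDM 1, 2 and 3, against 6.07, 13.5 and 11.2 CPM in NC 1, 2 and 3. FDM 1 and FDM 3 were high, and FDM 2 lay among the NC libraries. The log2 fold change was 2.32 ± 0.75 (SE) with an unadjusted p of 0.0122 and an adjusted p of 0.999999 in edgeR, and it ran from 1.67 to 2.80 with each library left out. DESeq2 gave an adjusted p of 0.944. Of all genes tested 0.661% were higher in FDM at an unadjusted p below 0.05.

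Ca9, the membrane carbonic anhydrase that is induced by HIF in many tumours, had 253, 100.3 and 37.1 CPM in FDM 1, 2 and 3, against 10.5, 51.2 and 78.0 CPM in NC 1, 2 and 3. Its values ran in the order of the skeletal muscle markers, and FDM 3 lay below NC 2 and NC 3. The fold change was 1.48 ± 0.84, 0.56 without FDM 1, 1.96 without NC 3 and -0.0023 without both libraries numbered 1. The part of muscle tissue in its level was not tested.

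Stc2 was the member whose groups did not overlap. It had 1.58, 6.64 and 5.77 CPM in FDM 1, 2 and 3, against 38.5, 11.3 and 23.4 CPM in NC 1, 2 and 3. These rest on 16, 92 and 92 counts in FDM and 394, 187 and 450 counts in NC. The fold change of -2.38 ± 0.86 had an unadjusted p of 0.0214 and an adjusted p of 0.999999 in edgeR, and 0.625 in DESeq2. It ran from -2.75 to -1.90 with each library left out and was -1.56 without both libraries numbered 1. All FDM libraries lay below all NC libraries for 1 of 33 members (3.03%), beside 2.81% of all genes tested, and above them for 0 of 33, beside 2.73%.

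The remaining HIF targets had fold changes smaller than their SE. Ndrg1, a gene of stress and differentiation that is abundant in myelinating glia, had 353, 484 and 266 CPM in FDM 1, 2 and 3, against 323, 245 and 416 CPM in NC 1, 2 and 3, a fold change of 0.17 ± 0.47 that was -0.085 with total-count scaling. Mxi1, an antagonist of MYC, had -0.14 ± 0.51, and Kdm3a, a histone demethylase, 0.38 ± 0.61. Kdm3a lay at 36.0, 36.2 and 87.3 CPM in FDM 1, 2 and 3, against 15.2, 64.0 and 43.0 CPM in NC 1, 2 and 3. Ankrd37, an ankyrin repeat gene, had 7.20, 0.722 and 4.20 CPM in FDM 1, 2 and 3, against 0, 21.5 and 4.58 CPM in NC 1, 2 and 3. Its fold change of -1.10 ± 1.84 was 0.77 without NC 2 and -1.81 without FDM 1. Across libraries Ndrg1 varied least of the members, its highest value being 1.98 times its lowest, and Slc2a1 varied most of those without a 0, by 105 times.

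Further genes of the same pathways were read for context. Their lists were written from textbook knowledge, but with earlier results of these data known. The wider list of glycolysis and glycogen genes had 36 tested, 15 positive and 21 negative, with a median of -0.11 and 0 called by edgeR. The median was 0.14 without NC 3 and -0.32 without NC 1. Those of smallest p were Bpgm, Pgm1, Mpc1 and Hkdc1. Bpgm, which makes the bisphosphoglycerate of red cells, had 1.58, 5.77 and 9.10 CPM in FDM 1, 2 and 3, against 16.9, 19.6 and 17.7 CPM in NC 1, 2 and 3. The NC values were close together and above all FDM values, with a fold change of -1.72 ± 0.89. Pgm1, the phosphoglucomutase that links glycogen and glycolysis, had 0.95 ± 0.59, the mitochondrial pyruvate carrier gene Mpc1 -0.73 ± 0.46 and the hexokinase domain gene Hkdc1 -1.55 ± 1.09. With each library left out the value of Hkdc1 ran from -2.42 to -0.54, the latter without NC 2.

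The wider list of HIF targets had 46 tested, 27 positive and 19 negative, with a median of 0.11 and 0 called by edgeR. Its genes of smallest p were Nfil3, Errfi1, Dusp1 and Klf10, with fold changes of 1.76 ± 0.52, 2.40 ± 0.77, 2.72 ± 0.87 and 1.13 ± 0.44. These respond to many stimuli besides HIF, Dusp1 and Klf10 being early response genes. Without FDM 3 the fold change of Dusp1 was 1.08 and that of Errfi1 1.29. The median of the list was -0.17 with total-count scaling, where that of all genes was -0.23. It was -0.034 with limma-voom and sample weights, and -0.11 without both libraries numbered 1. With each library left out it stayed positive, from 0.067 to 0.33. Klf10 had 182, 107 and 177 CPM in FDM 1, 2 and 3, against 76.6, 42.8 and 93.9 CPM in NC 1, 2 and 3, and its groups did not overlap.

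Genes of the HIF system itself had 18 tested, 10 positive and 8 negative, with a median of 0.11 and 0 called by edgeR. This median was -0.21 without FDM 3, -0.055 without NC 2 and -0.012 without NC 1. It was also negative at -0.18 with total-count scaling, where the median of all genes was -0.23. With limma-voom the median of the HIF system genes was -0.017 without and -0.072 with sample weights. Hif1a and Epas1 encode the alpha subunits that are mostly controlled by protein stability. Hif1a had 98.7, 146 and 106 CPM in FDM 1, 2 and 3, against 88.3, 111 and 243 CPM in NC 1, 2 and 3, and Epas1 averaged 376 ± 85.7 CPM in FDM and 465 ± 230.2 CPM in NC (SD, n = 3). NC 3 was the highest library for both genes, and their fold changes were -0.33 ± 0.48 and -0.31 ± 0.53. The oxygen-sensing hydroxylase genes Egln1 and Egln3 had -0.27 ± 0.40 and -0.51 ± 1.48, Egln3 being at 0 in FDM 1, and Vhl, which targets the subunits for degradation, -0.23 ± 0.42. Hif3a, an alpha subunit gene whose short forms restrain the others, stood at 8.87 ± 0.36 CPM in FDM and 32.3 ± 10.9 CPM in NC (SD, n = 3). All its FDM libraries lay below all its NC libraries, which held for 2.81% of all genes tested. Its fold change was -1.86 ± 0.58, with an unadjusted p of 0.00999 and an adjusted p of 0.999999 in edgeR, and ran from -2.18 to -1.63 with each library left out. The coactivator gene Crebbp had 0.93 ± 0.54, the ubiquitin ligase subunit gene Rbx1 0.53 ± 0.47 and the asparaginyl hydroxylase gene Hif1an -0.53 ± 0.68. The value of Crebbp was 0.089 without FDM 3, and that of Rbx1 was 0.057 without FDM 1.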

How the data were processed

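RNA was measured in 6 libraries of guinea pig sclera, grouped and numbered by their titles. The authors deposited unnormalized read counts of each gene, as whole numbers in a table of all 6 libraries. Trimmomatic, STAR and HTSeq are named in the submitters' processing notes. The sources used here give no version, strand setting, annotation or genome build, so reads of overlapping genes or of close copies and pseudogenes, which are common for Gapdh and other glycolytic genes in mammals, cannot be told apart. Nothing says beyond the right eyes that libraries come from separate animals. The p-values set the difference between the groups against the spread between these libraries.

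The main test used edgeR 4.0.16 under R 4.3.3 (filterByExpr, TMM, robust quasi-likelihood test in its older form). DESeq2 1.42.0 and limma 3.58.1 gave alternatives, and matplotlib 3.10.9 the figures. Group was the only term, p-values were adjusted by Benjamini-Hochberg over all genes tested, and a gene was called below 0.05. The biological coefficient of variation common to all genes was 0.933. The SE is the size of the fold change divided by the root of F. Isoform shares were compared by an exact two-sided permutation test. The fits were tested on simulated data. Members and lists were matched by exact symbol and were chosen with earlier results of these data known. Every matched member is named, with the 4 genes of smallest p of each wider list and 6 HIF system genes. The alternatives were other scalings and filters, DESeq2, limma-voom, a replicate block and libraries left out. edgeR's newer form was added after seeing the data. The table holds 0 columns of other samples. No sequences are printed.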

Additional observations from a re-analysis of the deposited data

How the results depend on the processing

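No member was called under any of the alternatives run, which were scaling by total count, upper quartile or RLE, a filter of 1 CPM in 3 libraries or none, limma-voom with or without weights, DESeq2, estimation that was not robust, a replicate block, each library left out, both libraries numbered 1 left out, and edgeR's newer form. At an unadjusted p below 0.05 the newer form gave 2 members and 335 genes. Over the 22455 genes with a count in any library DESeq2 called 25. The replicate number gave same-numbered libraries correlations of 0.10, 0.03 and -0.15 in their deviations from the group means. Not every library correlated best with its own number. Deviations from a mean of 3 libraries are tied to each other, so these values cannot decide whether the numbers mark pairs. With the replicate block 0 members and 0 genes were called, and the members' median was -0.29.

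With each library left out, the number of members without overlap ran from 1 to 9, or 3.03% to 27.3%, where the share of all genes ran from 10.6% to 21.8%. The number was 9 without FDM 3 (27.3%, beside 21.8% of all genes) and 7 without NC 3 (21.2%, beside 17.5%). It was 3 without NC 1 (9.09%, beside 12.3%) and 1 without NC 2 (3.03%, beside 10.6%). Without FDM 1 or FDM 2 it was 2 (6.06%, beside 12% and 14.6%).

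Some fold changes changed sign, and the cause was not tested. With total-count scaling, which moved the median of all genes from 0.02 to -0.23, Gapdh had -0.053 and Ndrg1 -0.085. With limma-voom Ankrd37 had 0.43, with the replicate block 0.017, and with sample weights Mxi1 had 0.10, Kdm3a -0.086 and Hif1an 0.14. Without both libraries numbered 1, Aldoa had -0.032, Tpi1 -0.16, Gapdh -0.33, Pfkm -0.23, Eno3 -0.097, Bnip3l 0.079, Mxi1 0.22, Ca9 -0.0023, Rbx1 -0.033, Hif1an 0.38 and the share of Eno3 -0.58 points. With each library left out the ranges were -0.071 to 0.56 for Gapdh, -0.83 to 0.74 for Pfkfb4, -0.73 to 0.14 for Bnip3l, -0.43 to 0.11 for Mxi1, -1.34 to 0.071 for Egln3, -0.35 to 0.058 for Ldhb, -0.086 to 0.30 for Ndrg1, -0.27 to 0.83 for Kdm3a, -0.065 to 0.69 for Pfkm, -0.85 to 0.028 for Hif1an, -1.40 to 0.21 for Hk2, -0.67 to 0.046 for Gpi, -0.65 to 0.21 for Pkm, -1.81 to 0.77 for Ankrd37, -0.60 to 0.14 for Hif1a, -0.65 to 0.053 for Epas1, -5.88 to 7.09 for the share of Hk2 (points) and -19.25 to 0.13 for the share of Pfkp (points).

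The spread between libraries limits precision, with SE of the members' fold changes from 0.45 to 1.95 on the log2 scale.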
